A study of Solanum lycopersicum with 6 samples.

Results

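Dicer-like and RNA-dependent RNA polymerase genes make the small RNAs of plants, and 8 of them were followed here by locus identifier: 5 Dicer-like genes (DCL1, Solyc10g005130; a pair of neighbouring loci listed as DCL2a, Solyc11g008520, and DCL2b, Solyc11g008540; DCL3, Solyc08g067210; DCL4, Solyc07g005030) and 3 RNA-dependent RNA polymerase genes (RDR1, Solyc05g007510; RDR2, Solyc03g114140; RDR6a, Solyc04g014870). Micro-Tom, a dwarf tomato, was the cultivar. Embryos carrying an SlNRPD1 knockout (nrpd1) were set against wild-type (WT) embryos, both taken 21 days after flowering, with 3 bisulfite libraries for each genotype. The labels do not describe the mutation, say whether libraries came from separate plants, or say how many embryos were pooled. The authors' lists of differentially methylated regions held 132092 regions and named 27473 genes, and 24 of these regions were assigned to 5 of the 8 genes. DCL1, DCL3 and RDR6a were named nowhere in the lists.

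RNA polymerase IV, whose largest subunit is NRPD1, copies repetitive DNA into short RNAs. In Arabidopsis, RDR2 turns those into double-stranded RNA, DCL3 cuts it into small RNAs, and these guide DNA methylation back to matching sequence. In the same plant, RDR6, DCL4 and DCL2 act mainly in silencing of messenger RNA and viruses, RDR1 in antiviral defence, and DCL1 in microRNA production. The genes studied are thus parts of the machinery that works with or beside polymerase IV, and the comparison asks how their own DNA was methylated when that enzyme was missing.

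Methylation was measured by sequencing bisulfite-treated DNA, in which unmethylated cytosines read as thymine. It is given separately for cytosines in CG, CHG and CHH, where H is A, C or T. Each region carried 1 mean level per genotype, computed by the authors, and differences are nrpd1 minus WT in percentage points. Read depth is unknown and no value of a single library was used, so no error between libraries and no test can be attached to any level below. All regions had been selected by the authors for a difference, none under 10 points, so their presence and direction describe the lists and not the genome. Coordinates are those of assembly SL4.0. The lists hold no expression values, and the knockout itself was not checked here.

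The regions at these genes were mostly less methylated in nrpd1 embryos, as were those of the lists. All assigned regions with a higher level in nrpd1 belonged to DCL4. Of the 24 regions, 21 were lower and 3 were higher. The CHH context gave 12 lower regions and 1 higher region, CHG gave 7 lower and 2 higher, and CG gave 2 lower and 0 higher. Over the whole lists, CHH gave 73614 lower and 3191 higher regions, CHG 37203 and 5074, and CG 8805 and 4205. Every one of the 5 named genes had a lower CHH region, which among all genes named in the lists was so for 90.9%. A lower CHG region was assigned to 4 of the 5, all but DCL4, against 67.3% of named genes, and a lower CG region to 2, both at DCL2 loci, against 25.2%. For higher regions the counts were 1 of 5 in CHG (10.3% of named genes), 1 of 5 in CHH (7.86%) and 0 of 5 in CG (11.7%). These shares are over genes with at least 1 assigned region in any context, which leaves out DCL1, DCL3 and RDR6a.

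**Figure D1:**
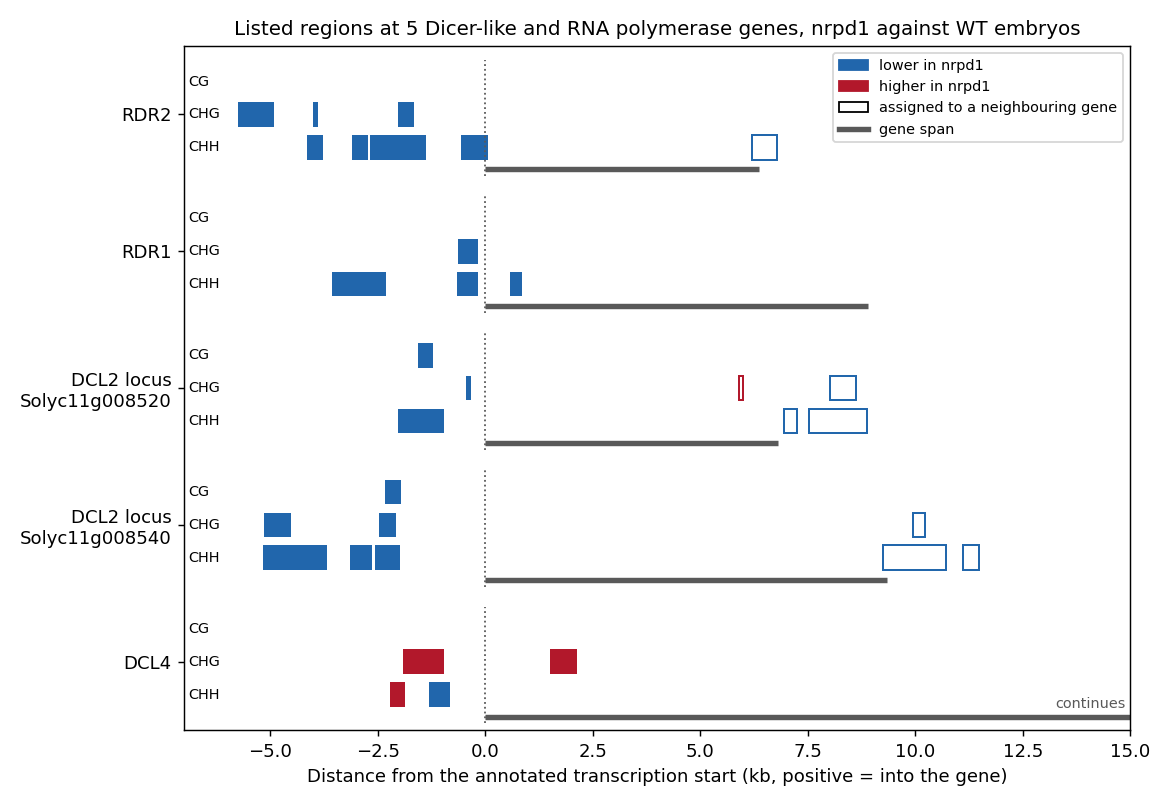
Listed regions at the 5 named genes, drawn by distance from the annotated transcription start in kb, with 1 lane for each cytosine context. Blue is lower and red higher in nrpd1 than in WT, open boxes are regions that the authors assigned to a neighbouring gene, and grey bars are gene spans (that of DCL4 is cut off). Filled regions lie almost wholly upstream of the starts, and filled red occurs at DCL4.

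Most of the assigned regions lay upstream of their genes, while downstream flanks held losses that the authors assigned to neighbours. Of the 24 regions, 21 ended upstream of the annotated start of their gene, 1 spanned a start (RDR2) and 2 began inside a gene (RDR1 and DCL4). All 21 upstream regions had their nearer edge within 5 kb of the start, a position held by 40.7% of all listed regions. Within the 2 kb upstream of the start, counting any region whichever gene it was assigned to, all 5 genes were touched by a CHH loss (70.8% of named genes). A CHG loss touched 3 of them (37.9%) and a CG loss touched 2 (9.46%). At Solyc11g008540 the CG loss reached into this window by 34 bases and the CHH loss by 12 bases. Gene bodies held a CHH loss in 3 of 5 (27.5%) and a CHG loss in 0 of 5 (15.7%). Coverage of the bodies was small, with CHH losses over 3.48% of RDR2, 3.05% of RDR1 and 0.995% of Solyc11g008540. In the 2 kb downstream of the gene end, a CHH loss touched 3 of 5 (51.6% of named genes) and a CHG loss 2 of 5 (28.8%). CHH losses covered 78.6% of this flank at Solyc11g008520, 80.4% at Solyc11g008540 and 21.3% at RDR2. CHG losses covered 30.0% of it at Solyc11g008520 and 14.4% at Solyc11g008540.

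In CHH and CHG the losses at these genes had median levels near those of the lists, whereas the 2 CG losses kept more methylation than the median CG loss. In the 12 CHH losses the median level was 6.16% in nrpd1 and 20.8% in WT, and over all 73614 CHH losses 8.00% in nrpd1 and 25.1% in WT. The median difference was -14.6 points at these genes and -15.7 points in the whole list. In the 7 CHG losses the medians were 38.8% in nrpd1 and 68.0% in WT, and in the 37203 CHG losses of the list 34.7% in nrpd1 and 67.9% in WT. The median CHG difference was -32.9 points at these genes and -27.9 points in the list. In the 2 CG losses the medians were 63.6% in nrpd1 and 84.0% in WT, and in the 8805 CG losses of the list 44.1% in nrpd1 and 74.7% in WT. The median share of the WT level left in CG was 75.1% at these genes and 60.8% in the list. In nrpd1 the levels of the 12 CHH losses ran from 3.71% to 20.8%, the highest being at the DCL2 locus Solyc11g008520.

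**Figure D2:**
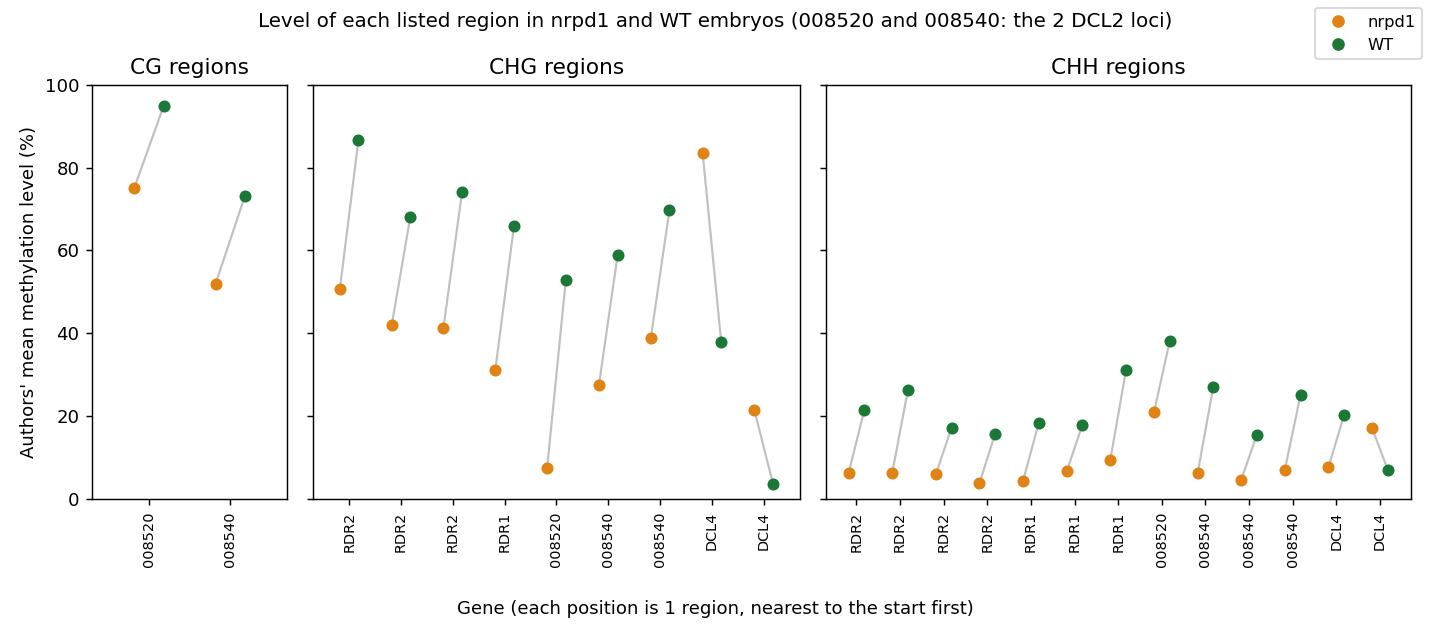
Authors' mean methylation level in percent for each of the 24 regions, with nrpd1 in orange on the left and WT in green on the right of each pair, grouped by context and gene (the DCL2 loci Solyc11g008520 and Solyc11g008540 are named by the end of their IDs). WT lies above nrpd1 in every pair outside DCL4, and at DCL4 nrpd1 is the higher one in 3 of 4 regions.

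RDR2, the polymerase that works on polymerase IV transcripts, had the most regions, with 4 lower CHH and 3 lower CHG regions and none that was higher. The gene lies on the minus strand at chr3:58573680-58580037. The CHH loss at chr3:58579963-58580598 spans its start, with 6.14% in nrpd1 and 21.4% in WT over 136 CHH cytosines. Further upstream, chr3:58581411-58582704 had 6.19% CHH methylation in nrpd1 and 26.2% in WT over 288 cytosines. Together these regions covered 59.4% of the 2 kb upstream of RDR2. The remaining CHH losses, 2725 and 3769 bases from the start, had 5.83% and 3.71% in nrpd1, against 17.1% and 15.7% in WT. All 4 CHH regions were therefore left with between 3.71% and 6.19% in nrpd1, while their WT levels spread from 15.7% to 26.2%.

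CHG methylation upstream of RDR2 was high in WT and at least 41.4% in nrpd1. At chr3:58581696-58582058, which lies wholly inside the larger CHH loss, the CHG level was 50.6% in nrpd1 and 86.7% in WT over 20 cytosines. The farthest region upstream, chr3:58584947-58585775, had 41.4% in nrpd1 and 74.2% in WT. The short region between them, of 5 cytosines, had 41.9% in nrpd1 and 68.0% in WT. Between 55.7% and 61.5% of the WT level was thus left in CHG, whereas in CHH 23.7% to 34.0% was left. The 3' end of the gene was overlapped by a further CHH loss that the authors assigned to the neighbour Solyc03g114130, chr3:58573255-58573825, with 5.42% in nrpd1 and 27.7% in WT.

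RDR1, induced by virus infection in Arabidopsis and tobacco, had 3 CHH losses and 1 CHG loss. It lies on the minus strand at chr5:2110765-2119670. Just upstream of its start, a CHG loss and a CHH loss nearly coincided. The CHG region chr5:2119844-2120291 had 31.1% in nrpd1 and 65.9% in WT over 19 cytosines, and it lay wholly inside the CHH region chr5:2119839-2120323, with 4.29% in nrpd1 and 18.3% in WT over 87 cytosines. These edges lay 174 and 169 bases from the start, the nearest to a start without crossing it among the regions listed for the 5 genes. The CHH region 2295 bases upstream had 9.40% in nrpd1 and 31.0% in WT, a difference of -21.6 points that was the greatest among the CHH losses assigned to these genes. The remaining one, in the first intron, had 6.56% in nrpd1 and 17.8% in WT.

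The DCL2 loci lie in a row on chromosome 11, with the locus Solyc11g008530 between them, and these were the genes with CG losses. RefSeq places a gene with the symbol DCL2a on chromosome 6 and DCL2b, DCL2c and DCL2d on chromosome 11, and it gives no locus identifiers of the kind used in the lists. The pair is therefore called by its identifiers below. DCL2 enzymes cut double-stranded RNA, including that of viruses.

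Solyc11g008520, on the plus strand at chr11:2723627-2730435, had 1 lower region in each context. The CHH region chr11:2721595-2722663 had 20.8% in nrpd1 and 38.0% in WT over 221 cytosines. That left 54.8% of the WT level, and 6.76% of all listed CHH losses were left with more. The CG region inside it, chr11:2722074-2722424, had 75.2% in nrpd1 and 94.9% in WT over 9 cytosines. Of the listed CG losses, 3.18% had a higher WT level. This upstream stretch was therefore highly methylated in WT in both contexts and kept much of it in nrpd1.

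Nearer to the start of Solyc11g008520, the CHG context behaved differently. The region chr11:2723174-2723303 had 7.41% in nrpd1 and 52.8% in WT, a difference of -45.4 points, and 4.96% of listed CHG losses had a greater one. It was left with 14.0% of its WT level, and 99.6% of listed CHG losses kept more. It rests on 4 cytosines, the smallest number in the lists, and was the 1 CHG loss of 7 at these genes that overlapped no CHH loss. Over the whole list, 75.7% of CHG losses overlapped a CHH loss by at least 1 base. In CG, both losses at these genes did, against 45.8% of the list.

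Solyc11g008540, on the plus strand at chr11:2747631-2756981, had losses in 2 blocks upstream that held several contexts each. In the nearer block, the CG region chr11:2745303-2745664 had 51.9% in nrpd1 and 73.1% in WT over 21 cytosines. It overlapped a CHG region, chr11:2745165-2745547, with 27.5% in nrpd1 and 58.8% in WT. Both overlapped the CHH region chr11:2745073-2745642, with 6.09% in nrpd1 and 27.0% in WT. This was the one place among the 5 genes where losses in all 3 contexts shared bases. No more than 12 bases of the CHH loss reached into the 2 kb upstream of the start.

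The farther block of Solyc11g008540 fell within the last intron of Solyc11g008530, by the authors' annotation, although it was assigned to Solyc11g008540. There the CHH region chr11:2742455-2743955 had 6.98% in nrpd1 and 25.1% in WT over 272 cytosines, and the CHG region inside it had 38.8% in nrpd1 and 69.8% in WT. Another CHH region between the blocks had 4.55% in nrpd1 and 15.5% in WT. In CHH, the shares of the WT level left at Solyc11g008540 ran from 22.6% to 29.4%, all under the 54.8% left upstream of Solyc11g008520. With 1 mean per genotype, that difference between the loci could not be tested.

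Inside the body of Solyc11g008520, 5906 bases from its start, lay a CHG region that was higher in nrpd1, with 15.8% in nrpd1 and 3.93% in WT over 7 cytosines. The authors annotated it to an exon of that gene but assigned it to Solyc11g008530, so it is not among the 24. With it, 2 of 5 gene bodies held a CHG gain, which 2.49% of named genes did. The other is that of DCL4, which spans 33595 bases, and the share was not adjusted for gene length. A minimum of 20 points removes both gains (11.9 points at Solyc11g008520 and 17.9 points at DCL4).

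DCL4, known in Arabidopsis for trans-acting small RNAs, had 3 higher regions and 1 lower region. It lies on the minus strand at chr7:39526-73120. Upstream of its start, the CHG region chr7:74081-75041 had 83.6% in nrpd1 and 37.7% in WT over 27 cytosines, a difference of 45.8 points. Of the 5074 CHG gains in the lists, 4.08% were greater. It was also wide, at 961 bases, and 7.06% of CHG gains were wider. It covered 48.1% of the 2 kb upstream of DCL4, a window in which 1.04% of named genes had any CHG gain.

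On either edge of that CHG gain lay a CHH region, and these differed in direction. On the side of the gene, chr7:73928-74428 had 7.58% in nrpd1 and 20.3% in WT over 47 CHH cytosines and shared 348 bases with the CHG gain. On the far side, chr7:74995-75325 had 17.0% in nrpd1 and 6.96% in WT over 79 cytosines and shared 47 bases with it. The CHH gain was small, at 10.1 points, and 93.0% of listed CHH gains were greater. In nrpd1 the stretch was thus higher in CHG, lower in CHH on the side of the gene and higher in CHH on the far side.

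Overlaps of this kind were rare in the lists. Of all CHG gains, 117 (2.31%) overlapped a CHH loss and 427 (8.42%) overlapped a CHH gain. Both held for 12 CHG gains (0.237%), of which 3, with that at DCL4, were annotated to promoters. At the level of genes, 5 of 27473 (0.0182%) had a CHG gain, a CHH loss and a CHH gain in the same 2 kb upstream of the start, DCL4 being 1 of them. The combination counted is the one seen at DCL4, so DCL4 was bound to be included and these shares are no test. It also rests on the CHH gain of 10.1 points and the CHH loss of -12.7 points, both of which a minimum difference of 20 points removes.

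**Figure D3:**
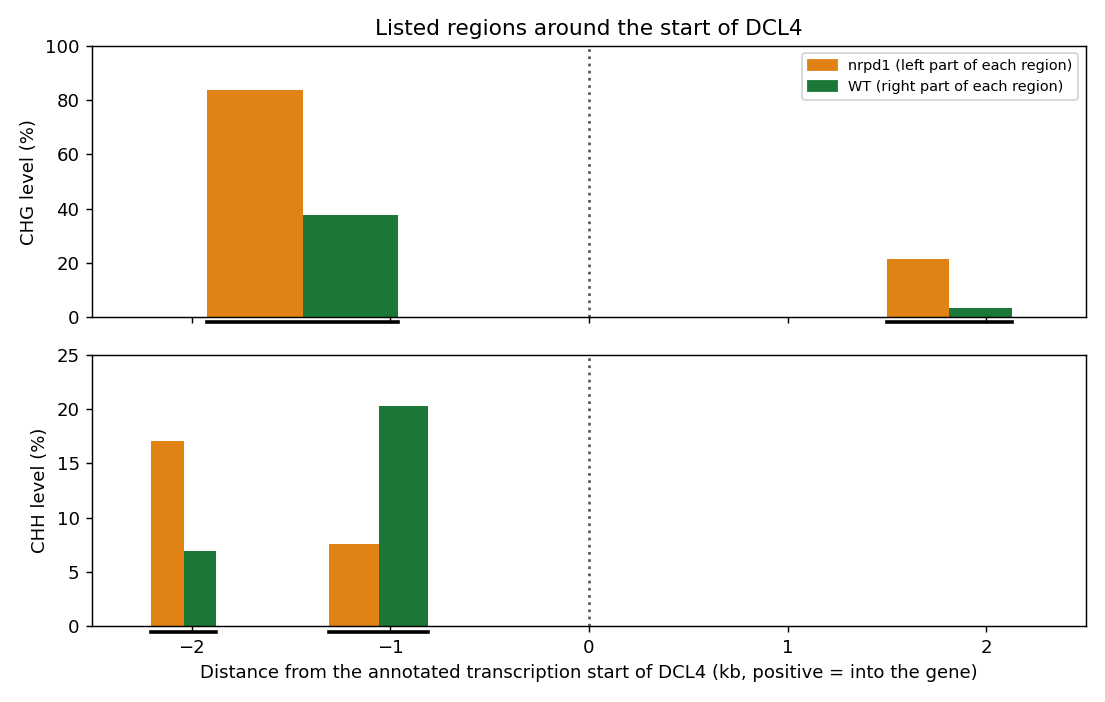
Regions around the start of DCL4, with CHG above and CHH below, by distance from the start in kb. Black lines under the axis give the extent of a region, the orange left part of each bar is the level in nrpd1 and the green right part that in WT (percent, different scales). CHG is higher in nrpd1 on both sides of the start, and the 2 CHH regions go opposite ways.

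A second CHG gain lay in the first intron of DCL4, 1501 bases from the start. This region, chr7:70991-71619, had 21.3% in nrpd1 and 3.45% in WT over 31 cytosines. Its difference of 17.9 points was small for the lists, where 83.3% of CHG gains had a greater one. Nearly unmethylated in WT, the region had one of the lowest WT levels among CHG gains, 99.8% of which were higher in WT. No CHH or CG region overlapped it. No other region was assigned to DCL4, whose annotated span is 33595 bases.

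**Figure D4:**
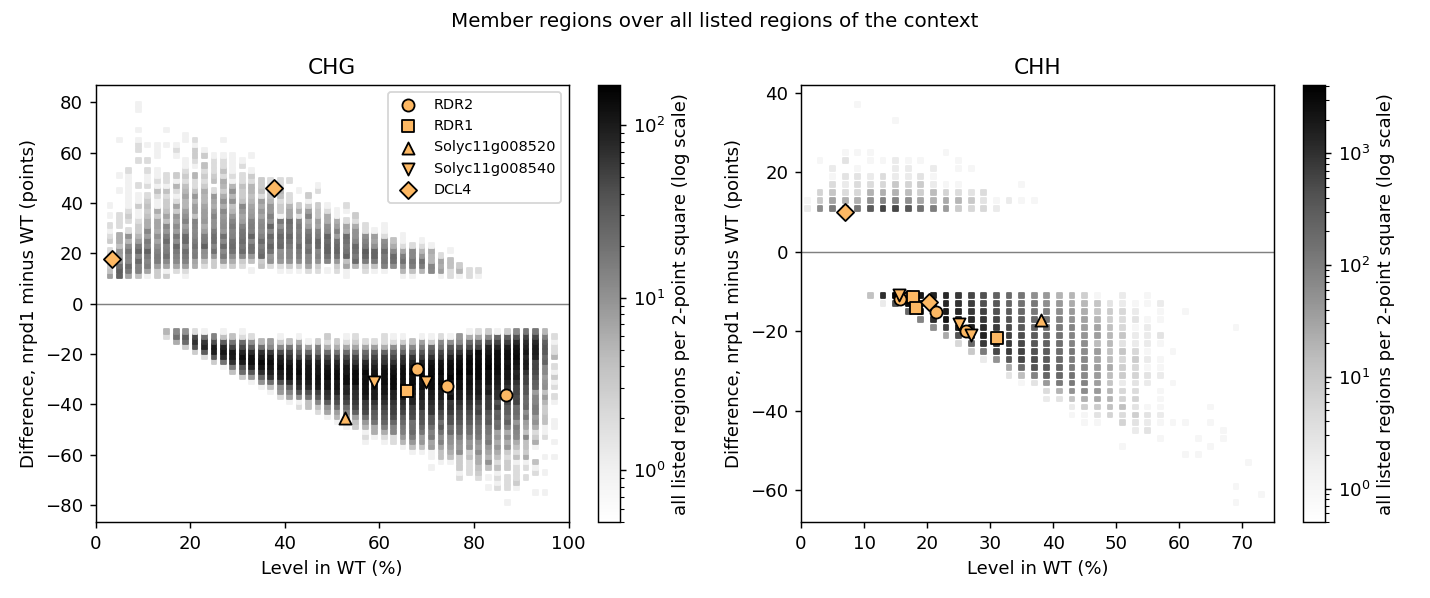
Difference in points, nrpd1 minus WT, against the WT level in percent, for CHG and CHH. Grey squares count all listed regions on a log scale and filled symbols are regions at the 5 genes. The CHG loss of Solyc11g008520 and the upstream CHG gain of DCL4 lie toward the lower and the upper edge of the grey field at their WT levels, and the CHH regions lie within the field.

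DCL3, the enzyme that cuts the products of RDR2, had no region, and neither had DCL1 or RDR6a. The lists hold no value outside the listed regions, so the methylation of these genes is not known here. Their coordinates are not in the lists either. Between the named loci next to DCL3 in the order of identifiers, Solyc08g067200 and Solyc08g067220 on chromosome 8, lay 35046 bases with 0 listed regions. Between those next to RDR6a, Solyc04g014853 and Solyc04g014880 on chromosome 4, lay 48364 bases with 6 listed regions. The gene that RefSeq calls DCL3, on another assembly, is longer than the first interval, so these intervals are not taken as the positions of the genes. The identifiers next to DCL1 lie at opposite ends of chromosome 10.

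A further 22 loci, taken by identifier as candidates for the same small-RNA pathways, are given as counts since no source used here annotates them. Of these, 17 were named in the lists. A lower CHH region was assigned to 16 of the 17 (90.9% of all named genes), a lower CHG region to 15 (67.3%) and a lower CG region to 6 (25.2%). Higher regions were assigned to 3 in CHG (10.3%), 0 in CHH (7.86%) and 0 in CG (11.7%). The medians of their losses were -14.7 points in CHH and -33.2 points in CHG. In the 2 kb upstream of the start, 0 of the 17 had a CHG gain (1.04% of named genes), and 0 had the arrangement seen at DCL4 (0.0182%). In the gene body, 2 of the 17 had a CHG gain (2.49%).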

How the data were processed

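DNA from 6 embryo samples was converted with bisulfite, per the labels' protocols. Trim Galore 0.6.7 and Bismark 0.24.0 appear in the submitters' processing notes, without role. How regions were called, the conversion rate and the depth are not stated there, and incomplete conversion would raise apparent methylation. The deposited tables give a mean methylation fraction per genotype, printed here as percent, with counts of cytosines per region. They also hold the authors' region statistic, a score without fixed range. The deposited difference equals nrpd1 minus WT.

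Regions were taken by the assigned gene, the part of the identifier before the dot. Percentages of named genes, overlaps of at least 1 base and 2 kb windows were computed with Python 3.11.15, pandas 2.3.3 and numpy 2.4.6, after tests on made-up intervals. No test between genotypes was possible with 1 mean each. The genes and lists were chosen with earlier results of these data known, and every region of each gene is described. Alternatives were a minimum difference, a minimum of cytosines, the larger statistics, assignment by position, a limit on distance and leaving out the DCL2 loci. Gene symbols of RefSeq (SLM_r2.1) were used for names only. No nucleotide sequence was used here.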

Additional observations from a re-analysis of the deposited data

How the results depend on the processing

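Counts of regions moved with the size and strength required. Directions could not reverse, since every setting kept the authors' difference of each region. With at least 20 points of difference, CHH losses dropped to 2 regions at 2 genes (1 gene by promoter or body) and CHH gains to 0, against 12 and 1 without that limit, while CG losses and CHG gains dropped to 1 region each. With the 50% of regions of larger statistic, 4 CHH losses (2 genes by promoter or body), 0 CHH gains and 1 CG loss were left. With at least 10 cytosines, 1 CG loss was left. Without the DCL2 loci, 0 CG losses, 4 CHG losses at 2 genes and CHH losses at 3 genes were left. A limit of 10 kb to the start changed nothing, and assignment by position moved no count by over 1.5 times. Over these settings the median CHH loss ran from -21.3 to -13.3 points and the median CHG loss from -36.2 to -32.9. The upstream CHG gain of DCL4 was kept at 20 points. Depth is unknown. No library could be left out in turn. No paired analysis was possible because the tables hold 1 mean per genotype.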

Other observations

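The locus between the DCL2 pair, Solyc11g008530, had 6 regions, of which 3 were CHH losses, 2 were CHG losses and 1 was the CHG gain inside Solyc11g008520. Upstream of it, a CHG region of 600 bases had 36.8% in nrpd1 and 86.5% in WT, and a CHH region of 1335 bases had 7.81% in nrpd1 and 32.4% in WT. CHH losses covered 66.8% of the 2 kb upstream of this locus, against 51.9% for Solyc11g008520 and 12 bases for Solyc11g008540. The 3' end of Solyc11g008540 was overlapped by a CHH loss assigned to Solyc11g008550, with 10.5% in nrpd1 and 36.7% in WT.

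Among the 22 candidate loci counted above, 7 were taken by identifier as candidates for the same families. Of these, 3 were named in the lists, Solyc11g008530 included, all with CHH losses, as were 90.9% of named genes. Solyc06g048960 had 6 CHH losses, left with 19.7% to 69.6% of the WT level, and Solyc06g051190 had 6, left with 23.4% to 45.3%. Solyc06g051190 also had a CHG gain and a CHG loss.

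Solyc11g008520 was the 1 gene of the 5 with losses in all 3 contexts in its own promoter (up to 2 kb) or body. At Solyc11g008540 the nearer CHG loss, 2084 bases upstream, fell just outside that limit, although it overlapped the CG loss counted there. At Solyc11g008520 a minimum of 10 cytosines removes the CG loss (9 cytosines) and the CHG loss (4 cytosines). A minimum of 20 points removes the CG loss (-19.7 points) and the CHH loss (-17.2 points). How many named genes had such losses in all 3 contexts was not counted, but 738 others matched Solyc11g008520 in their number in each context. Among these 738 genes, the 3 with the nearest differences were Solyc03g097840, Solyc02g092180 and Solyc03g082870. Their distances were 2.45, 2.66 and 3.58 points over the 3 contexts.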
